A study of Homo sapiens with 4 samples.

Results

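Of the 149676 open chromatin intervals called in C4-2B cells, 73265 (48.9%) lay away from promoters and were called again in C4-2BER cells. These kept distal sites were selected on the 2 deposited peak lists. A C4-2B interval was a member when it overlapped a C4-2BER interval by at least 1 bp and its midpoint was more than 2000 bp from every transcription start site (TSS) of a protein-coding gene in the human genome build hg38. Overlap with the second list chose the members, so their presence in both lines is the rule and not a result. What they contain, where they lie and how strong they were in each line was described without a test.

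C4-2B is a human prostate adenocarcinoma line. C4-2BER, labelled C4-2B_Enza_Resist, is a neuroendocrine-like derivative, grown out of C4-2B under lasting treatment with the androgen receptor blocker enzalutamide. Open DNA was mapped with ATAC-seq, which relies on the Tn5 transposase to cut and tag accessible chromatin, in 4 libraries with 2 replicates per line. The replicates of a line were merged before peaks were called, so each line is 1 list, every comparison is between 2 merged lists of 1 parental and 1 derived line, and no value has a replicate error.

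Distal open sites are mostly enhancers, which bind transcription factors and act on promoters over long distances, and insulators, at which CTCF folds the chromatin into loops. In luminal prostate cells the pioneer factor FOXA1, a forkhead protein, opens many enhancers at which the androgen receptor binds its own element. CTCF sites are shared between most cell types, whereas enhancers differ between them.

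The sequences of 5 members show what the kept sites carry. The 3 given by motif are the members with the highest lower-of-2 ranks that held that motif within 50 bp of the C4-2B summit, the base at which the caller placed the peak's maximum. The last 2 are from the ends of the ratio of C4-2BER to C4-2B reads among the strong pairs defined with the single sites, namely the highest and, since the sequence of the very lowest is not given here, the next to lowest. Each line gives the 101 bp centred on the C4-2B summit in hg38, plus strand, with the matched motif in capitals; the last 2 have capitals only where a searched motif was found.
CTCF site nearest to SHKBP1, chr19:40570769-40570869: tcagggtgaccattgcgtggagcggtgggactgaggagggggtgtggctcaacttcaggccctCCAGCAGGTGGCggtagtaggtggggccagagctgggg
Androgen response element site nearest to CACNG5, chr17:66676141-66676241: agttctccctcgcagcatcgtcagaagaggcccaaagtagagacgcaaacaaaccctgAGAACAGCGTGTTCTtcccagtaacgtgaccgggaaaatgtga
AP-1 site nearest to TMEM121, chr14:106872805-106872905: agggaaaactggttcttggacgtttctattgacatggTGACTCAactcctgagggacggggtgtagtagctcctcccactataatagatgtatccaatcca
Highest ratio, nearest to RAP1GAP, chr1:21607813-21607913: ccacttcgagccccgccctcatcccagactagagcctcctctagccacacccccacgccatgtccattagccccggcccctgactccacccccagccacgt
Low ratio, nearest to ESRRG, chr1:216902811-216902911, with a RUNX motif: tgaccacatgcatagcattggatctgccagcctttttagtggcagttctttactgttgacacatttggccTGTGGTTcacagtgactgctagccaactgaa

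The first 3 of these sites were picked for a high rank in both lists, so their strength in both lines is part of the choice. The CTCF site had 171 reads at its C4-2B summit and 176 in the derived line, and the same values were 142 and 79 for the androgen response element site and 170 and 149 for the AP-1 site. The androgen response element site had the lowest ratio of the 3, with a log2 ratio of -0.59 (-1.003 to -0.18), against 0.30 (-0.01 to 0.61) for the CTCF site. These intervals are exact 95% limits for counting error only. The choice also asks for a high rank in C4-2BER. Over all members with an androgen response element the median log2 ratio was lower, at -1.18. The ratio is that of C4-2BER to C4-2B reads within 200 bp at the strongest summit of each interval, scaled by the depth of the lists, and a negative value is a lower level in C4-2BER.

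The reads were recovered from the deposited fold enrichments and p-values. They correspond to depths of 30.2 M reads in C4-2B and 25.2 M in C4-2BER if the caller used a genome of 2700000000 bp, and their ratio of 1.20 needs no such assumption. The lists hold 149676 and 118728 intervals. All 7 luminal and all 6 neuroendocrine markers checked had a promoter interval in both lists, whereas of 4 markers of other cells 1 had one in C4-2B and 2 in C4-2BER.

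Distal sites were kept less often than promoters. Over all C4-2B intervals, 62.3% overlapped a C4-2BER interval. Of the 126051 distal intervals 58.1% (Wilson 95% interval 57.9 to 58.4) were kept, against 84.3% (83.8 to 84.8) of the 23625 promoter intervals. The 52786 distal intervals that were not kept and the 21558 distal C4-2BER intervals without a C4-2B interval are the sets used for comparison here.

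Sites that were strong in C4-2B were kept far more often. In the weakest decile of distal C4-2B intervals by −log10 p, with a median of 11 reads, 24.2% were kept, in the fifth decile 53.4%, and in the strongest, with a median of 93 reads, 92.1%. A weak site must pass the caller's threshold in both lists, so this gradient and the levels of the weak members are bound up with the rule. Members had a median of 36 reads in C4-2B, with quartiles of 22 and 60, while the intervals not kept had a median of 18.

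**Figure D1:**
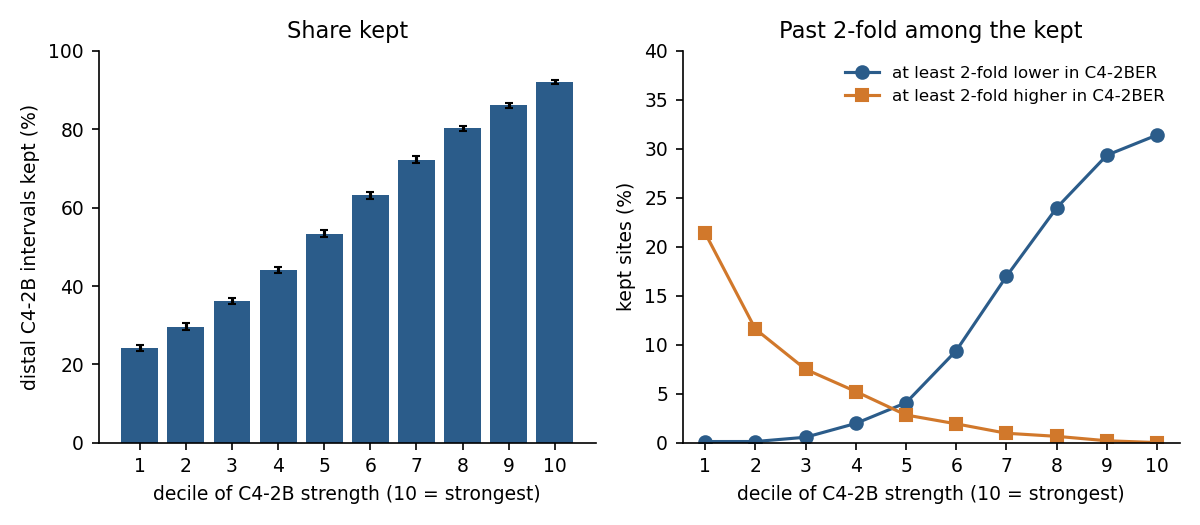
Left, the share of distal C4-2B intervals kept in C4-2BER (%, Wilson 95% intervals for counting error) by decile of −log10 p in C4-2B; right, the share of the kept sites at least 2-fold lower or higher in C4-2BER. The share kept goes from 24.2% to 92.1%, and the share at least 2-fold lower from 0.131% in the weakest decile to 31.4% in the strongest.

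The kept sites were wider in C4-2B than the sites that were not kept, and slightly narrower in C4-2BER than in C4-2B. Their median width was 446 bp (quartiles 310 and 638) in C4-2B and 376 bp (276 and 561) in C4-2BER, while the medians of distal intervals without a partner were 284 bp (C4-2B) and 253 bp (C4-2BER). Per pair, the median of the C4-2BER width over the C4-2B width was 0.919 (binomial 95% interval 0.917 to 0.921). In C4-2BER 63.2% of the members were narrower and 36.1% wider. Widths were not scaled for depth, which was lower in C4-2BER, and the width of an interval also follows its reads. Kept promoter intervals, with a median width of 814 bp, had a ratio of 1.02.

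Most pairs marked the same position. The summits of a pair lay a median of 18 bp apart, within 10 bp for 32.3% of the members, within 50 bp for 82.0% and within 200 bp for 94.0%. The shared stretch covered a median of 86.5% of the C4-2B width. Of the members, 69321 (94.6%) were paired 1 to 1, 2118 overlapped more than 1 C4-2BER interval, and 1873 shared their partner with another C4-2B interval. For a member with several partners, the one with the highest −log10 p was used.

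At the thresholds of the rule, the 3 members just inside the distance limit had midpoints 2001 bp from the nearest TSS, those of CFAP46, TBX10 and LIX1, and log2 ratios of 0.43, -1.27 and -0.05. The 3 kept intervals just outside it were 2000 bp from DGKZ, LRP2 and MYLK4, with log2 ratios of -0.39, 0.52 and -1.53. Only 3 members overlapped their partner by 1 bp, with 11 to 26 reads in C4-2B and summits 243 to 574 bp apart, and 177 (0.242%) by at most 50 bp. On the other side, 18 distal intervals missed a C4-2BER interval by a gap of 10 bp or less, with 11 to 24 reads.

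Kept sites lay closer to genes than the sites of a single list. Their median distance to the nearest TSS was 36397 bp (35899 to 36843), with quartiles of 13809 and 102958 bp, against 43380 bp for the C4-2B intervals not kept and 44236.5 bp for the C4-2BER intervals without a partner. The share kept was 57.7% between 2000 and 5000 bp, 61.1% between 5000 and 10000 bp, 60.4% up to 50000 bp and 58.1% up to 100000 bp. It was 54.6% up to 500000 bp and 51.2% beyond, where members were also weaker, with a median of 26 reads in C4-2B against 50 in the nearest bin. CTCF motifs were found at 12.2% of the members in the nearest bin and at 7.37% of those in the farthest.

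**Figure D2:**
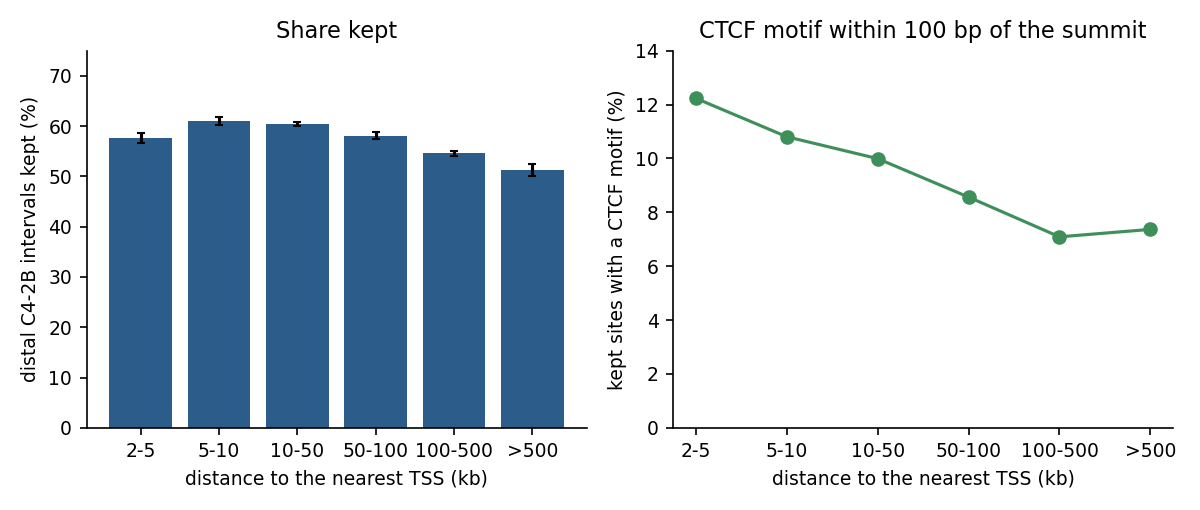
Left, the share of distal C4-2B intervals kept (%, Wilson 95% intervals) by distance from the midpoint to the nearest protein-coding TSS (kb); right, the share of the kept sites with a CTCF motif within 100 bp of the C4-2B summit. The share kept was highest between 5000 and 10000 bp, at 61.1%, and lowest beyond 500000 bp, at 51.2%, and the CTCF share went from 12.2% to 7.37%.

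Of the members, 43.9% had their midpoint in an intron of a protein-coding gene, 4.80% in an exon, 14.5% in a long noncoding RNA gene only and 36.9% outside these genes, and 46.1% lay upstream of their nearest TSS. Intron sites had a median log2 ratio of -0.35, lower than the -0.18 of sites outside genes. The GC content within 100 bp of the summit had a median of 48.3% in members, 45.3% in the distal sites not kept and 65.7% in kept promoter intervals.

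Among the members, levels in C4-2BER were more often lower than higher. The median log2 ratio was -0.26 (-0.27 to -0.26), a C4-2BER level of 0.835 times that in C4-2B after scaling for depth, with quartiles of -0.74 and 0.15. At least 2-fold lower in C4-2BER were 11972 members (16.3%, 16.1 to 16.6), beside 13.4% of all 93185 kept intervals, promoters and members together. At least 2-fold higher were 2246 (3.07%, 2.94 to 3.19), beside 3.87% of all kept intervals. The other 59047 (80.6%) lay within 2-fold.

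The promoters went the other way. Kept promoter intervals had a median log2 ratio of 0.13 (0.12 to 0.13), 2.76% of them were at least 2-fold lower and 6.84% at least 2-fold higher. Over all kept intervals the median was -0.13, and ratios centred on it instead of on depth gave 12.8% of members at least 2-fold lower and 4.24% at least 2-fold higher. Both scalings thus left more members lower than higher.

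**Figure D3:**
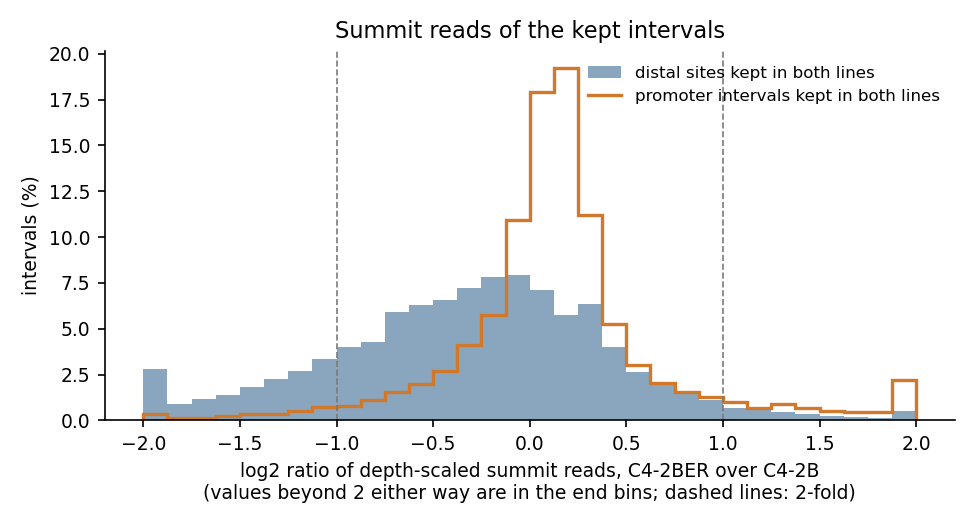
Distribution (% of intervals per bin) of the log2 ratio of depth-scaled summit reads, C4-2BER over C4-2B, in the 73265 kept distal sites (filled) and the 19920 kept promoter intervals (line); dashed lines mark 2-fold. The distal sites centre on -0.26 with a tail to the left, and the promoters on 0.13.

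Ranks within each list use no depth scaling but depend on the length of the list, and are given as a description. With more weak intervals in the longer C4-2B list, a site at the same place from the top has a higher percentile there, so a lower rank in C4-2BER is no separate evidence of a lower level. The rank percentile of an interval is its place by −log10 p among all intervals of its own list, from 0 for the weakest to 100 for the strongest. The members' median rank was 60.9 in C4-2B, compared with 53.6 in C4-2BER, and the median change per pair was -4.35 points (-4.51 to -4.25), with quartiles of -19.0 and 6.86. A rank lower by 25 points or more was found in 13592 members (18.6%), beside 15.5% of all kept intervals, and a rank higher by 25 points or more in 5322 (7.26%), beside 7.65%. Kept promoter intervals changed by a median of 0.852 points. Across the members the ranks in the 2 lists had a Spearman rho of 0.609, a description over sites that share their libraries.

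The direction differed with strength in C4-2B. In the weakest decile of C4-2B strength the kept sites had a median log2 ratio of 0.52 and 21.4% were at least 2-fold higher in C4-2BER, while in the strongest decile the median was -0.62 and 31.4% were at least 2-fold lower. A weak site can be kept only if it is called again, so the positive values at the weak end are partly set by the rule. The deciles were also cut on C4-2B strength, and the C4-2B reads are the denominator of the ratio, so the split itself draws the strong end towards lower ratios. How much of the gradient is set in this way was not tested.

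Levels and widths moved together. When the members were split into 5 groups of 14653 sites by log2 ratio, the group with the lowest ratios had a median of 54 reads in C4-2B against 16 in C4-2BER, and the C4-2BER interval had 0.654 times the C4-2B width. In the highest group the medians were 20 and 27 reads and the width ratio was 1.17. Since the width of a called interval follows its reads, the widths are no separate evidence of a change. The lowest group lay in introns in 50.6% of cases and the highest in 37.5%, and the median GC content was 45.8% and 49.8%.

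The sites were then described by their motifs. Consensus sequences of 21 factor families were matched on either strand within 100 bp of the C4-2B summit. CTCF, the androgen response element, REST, HNF1 and NFI were matched by patterns of 10 or more letters. The forkhead letters were TGTTTAC, also with A as the second letter, and those of AP-1 TGACTCA, also with G in the middle. For ETS factors they were CCGGAAG, for GATA factors AGATAAG, for SOX factors AACAATG, for TEAD factors GGAATGT and for RUNX factors AACCACA. The core of the PAX5 site was matched as GCGTGAC. A first E-box was CAGCTG and a further E-box was CAGATG. The longer ones were GRHL (AACCAGTT, AACCGGTT or AACTGGTT), HOXB13 (CCAATAAA), PBX-HOX (TGATTAAT, TGATTGAT or TGATTTAT), HNF4 (CAAAGTCCA) and the POU octamer (ATGCAAAT). Each was counted by itself, so a site could hold several, and a match is a description of the letters and not of binding.

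CTCF motifs, the mark of insulators and loop anchors, were the most concentrated in the kept sites. They were found at 6799 members (9.28%, 9.07 to 9.49), at 1.46% of the distal sites not kept, at 4.11% of the C4-2BER sites without a partner and at 6.0% of all distal C4-2B intervals. Windows 1000 bp away from the members' summits held one in 0.319% of cases. Of the distal C4-2B sites with a CTCF motif 89.8% were kept, beside 58.1% of all distal sites.

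The kept CTCF sites had nearly equal levels in the lines. Their median log2 ratio was 0.05 (0.04 to 0.05). At least 2-fold lower were 1.76% and at least 2-fold higher 1.74%, beside 16.3% and 3.07% of all members. Their median rank was 60.4 in C4-2B, compared with 65.9 in C4-2BER.

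The androgen response element, the palindrome bound by the androgen receptor, showed the opposite pattern. It was found at 112 members (0.153%, 0.127 to 0.184), at 0.640% of the distal sites not kept, at 0.357% of all distal C4-2B intervals and at 0.0139% of the C4-2BER sites without a partner. The flanking windows held it in 0.0191% of cases. Of the distal C4-2B sites with the element, 24.9% were kept.

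Where a site with the element was kept, its level was lower in C4-2BER in nearly every case. The 112 sites, each nearest to a different gene, had a median log2 ratio of -1.18 (-1.40 to -0.97), with a range of -3.06 to 0.84, and 108 of them (96.4%) were below 0, beside 66.4% of all members. Of these sites 56.2% were at least 2-fold lower, beside 16.3% of all members, and 0 at least 2-fold higher. Their median rank was 85.7 in C4-2B, compared with 51.8 in C4-2BER.

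Read from the other side, the element was present at 63 (0.526%, 0.412 to 0.673) of the 11972 members at least 2-fold lower in C4-2BER and at 0 of the 2246 at least 2-fold higher, which allows a share of up to 0.134% (3 counts) or, by the Wilson upper limit, 0.171%. The share over all members, 0.153%, lies between these limits, so fewer elements among the higher members than among all members were not detectable. CTCF motifs were found at 1.00% (0.839 to 1.20) of the lower members, 11.1% of those within 2-fold and 5.25% (4.41 to 6.26) of the higher. Both groups past 2-fold thus held fewer CTCF motifs than the members between them.

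The 6 members with an androgen response element that ranked highest in C4-2B, chosen after their values were seen, illustrate the range. The site nearest to UBE2H, a ubiquitin-conjugating enzyme, at chr7:129898565-129899600, also held a forkhead motif and had 185 reads in C4-2B against 46 in C4-2BER. The site nearest to PLEKHG3, at chr14:64749613-64750357, had 130 and 13 reads and went from rank 97.0 to 16.7. At the site nearest to CNTN3, a neuronal cell adhesion gene, the reads were 100 and 12.

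At the other 3 the ratios were less alike. The site nearest to CCDC54 had 124 and 27 reads, a log2 ratio of -1.94, and that nearest to ANKRD50 had 103 and 44, a ratio of -0.97. The site nearest to AKAP13, a scaffold for protein kinase A, had 151 and 105 reads, a log2 ratio of -0.27. All 6 log2 ratios were negative, by amounts that differed widely, but the limits of the AKAP13 site, -0.64 to 0.10, include equal levels. The sites were picked for their rank in C4-2B, and the C4-2B reads are the denominator. The pick itself thus draws these ratios down.

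Forkhead motifs, the sites of FOXA proteins, were common and also marked lower levels. They were found at 11516 members (15.7%), at 20.8% of the distal sites not kept, at 17.9% of all distal C4-2B intervals and at 6.30% of the flanking windows. Of distal sites with the motif 51.2% were kept. The kept ones had a median log2 ratio of -0.54 (-0.55 to -0.52). At least 2-fold lower were 27.8% and at least 2-fold higher 2.57%, beside 16.3% and 3.07% of all members.

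Of the groups made by these motifs, the few sites with both had the lowest median ratio. The 22 members with an androgen response element and a forkhead motif had a median log2 ratio of -1.57 (-1.76 to -0.96), the 90 with the element alone -1.11 (-1.33 to -0.94), the 11494 with the forkhead motif alone -0.54, and the 61659 with neither -0.22. The interval of the first of these groups overlaps that of the second. Forkhead motifs were found in 25.5% of the 14653 members with the lowest ratios and in 10.7% of those with the highest.

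Other motifs lay between these. GATA motifs were found at 3.69% of members, with a median log2 ratio of -0.50, and AP-1 motifs, bound by FOS and JUN, at 7.95%, with -0.45. GRHL motifs, bound by the epithelial grainyhead factors, were found at 2.24% of members against 1.74% of sites not kept, and HOXB13 motifs at 1.56%. In all distal C4-2B intervals the shares were 4.08% for GATA, 8.06% for AP-1, 2.03% for GRHL and 1.57% for HOXB13. GRHL sites had a median log2 ratio of -0.42, with 14.6% at least 2-fold lower and 0.670% higher, and HOXB13 sites one of -0.43, with 24.0% lower and 2.10% higher, beside 16.3% and 3.07% of all members.

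REST motifs, bound by the repressor of neuronal genes, marked 234 members (0.319%) against 0.0890% of distal sites not kept and 0.223% of all distal sites. Of the distal sites with the motif 83.3% were kept, with a median log2 ratio of -0.22. Of the kept ones 2.99% were at least 2-fold lower and 0.855% higher, beside 16.3% and 3.07% of all members. ETS motifs, at 1.61% of members and 1.33% of all distal sites, were kept in 70.3% of cases. The octamer of POU factors was found at 1.49% of the members at least 2-fold lower and at 3.70% (2.99 to 4.56) of those at least 2-fold higher, beside 1.67% of all distal sites.

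Since sites with different motifs differed in strength, each motif was also described among sites of similar strength, a split chosen after seeing the data. Of the 37815 distal C4-2B intervals in the 3 strongest deciles, 86.2% were kept, with a median log2 ratio of -0.56. Of those with a CTCF motif 99.6% (99.3 to 99.8) were kept, with a median of -0.05, and all 104 with a REST motif were kept, with -0.27. The shares were 93.9% for ETS, 82.3% for GATA and 78.1% for forkhead, with medians of -0.20, -0.88 and -0.88. Only 50.3% (43.1 to 57.4) of the 185 strong sites with an androgen response element were kept, with a median of -1.33. Of these kept sites 62.4% were at least 2-fold lower, beside 28.4% of all kept sites in the 3 strongest deciles.

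The order was similar among weaker sites. In the 4 weakest deciles 33.5% of all distal sites were kept, 69.4% of those with a CTCF motif, 26.5% of those with a forkhead motif and 4.79% of the 146 with an androgen response element. In the deciles between, the shares were 62.9%, 93.6%, 50.0% and 10.1%. The median log2 ratio of the 7 kept element sites of the weak class, -0.26, had an interval of -0.93 to 0.84.

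**Figure D4:**
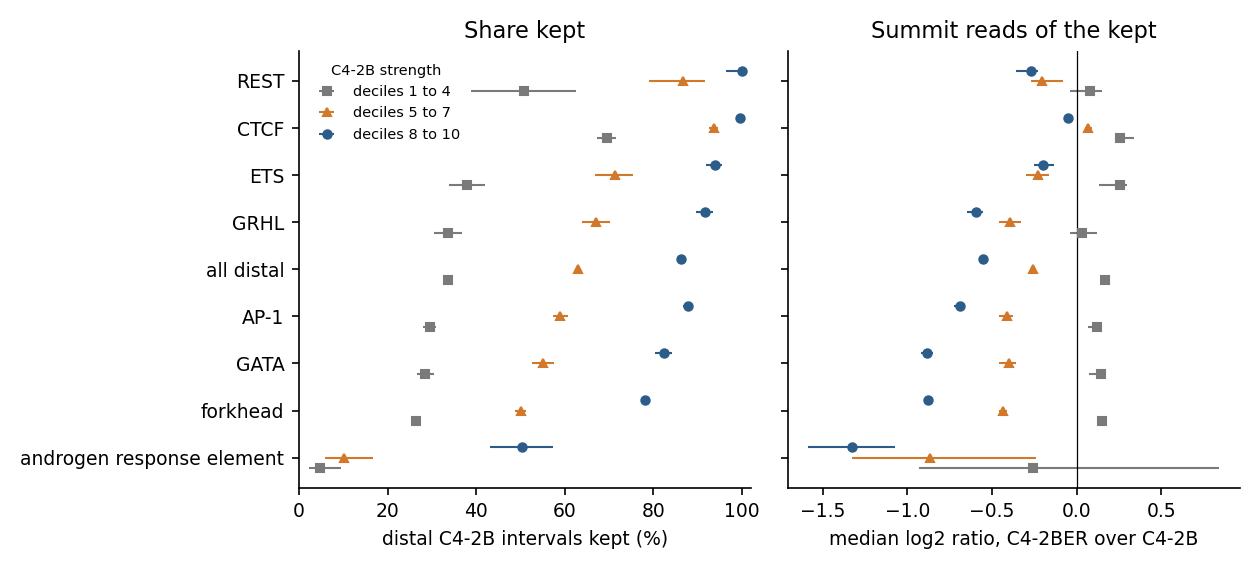
Left, the share of distal C4-2B intervals kept (%, Wilson 95% intervals) and right, the median log2 ratio of summit reads of the kept sites (C4-2BER over C4-2B, binomial 95% intervals), for sites with each motif within 100 bp of the summit and for all distal sites, in 3 classes of C4-2B strength. In the strongest class CTCF and REST sites were kept in 99.6% and 100% of cases and androgen response element sites in 50.3%, with a median log2 ratio of -1.33.

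GC content moved with the ratio and with the motifs. Across the members the log2 ratio and GC content had a Spearman rho of 0.170, and the median ratio was -0.40 in the 14653 members of lowest GC content and -0.06 in those of highest. In the lowest GC group, sites with an androgen response element had a median of -1.33, forkhead sites -0.63 and CTCF sites 0.08. In the highest GC group these medians were -0.69, -0.04 and 0.05, so the difference between forkhead and CTCF sites was small there. Only 112 members over all GC groups held the androgen response element, so its medians by group rest on few sites and carry no interval. The part of GC content in the levels was not tested further.

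Among 14245 protein-coding genes that were nearest to at least 1 member, the median gene had 3 and the maximum was 90. The 940 genes with 15 or more held 20261 members (27.7%), and the 20 genes with the most held 1120 (1.53%). Kept sites are thus spread over most genes, and the genes with the most hold a small share of them. The count of a gene followed the length of genome that is nearer to it than to any other gene, with a Spearman rho of 0.750 across genes. A nearest gene is a position and does not say which gene a site acts on.

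The 2 genes with the most members lie at the edge of gene-poor stretches. TMEM121 on chromosome 14 had 90 members of 126 distal intervals (71.4%), a median of 703.6 kb away, in the stretch that holds the immunoglobulin heavy chain segments, which are not annotated as protein-coding genes and so were not counted. TPTE, a phosphatase-related gene near the centromere of chromosome 21, had 78 of 122, as far as 5393 kb away, at 0.646 members per 100 kb of its stretch against a median of 3.60 over genes. Median log2 ratios were -0.01 and 0.07. TPTE, like NBPF1 and FOLH1, has near-identical copies elsewhere, at which the placement of reads is uncertain.

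The other genes of the 20 are given with what each encodes. TENM4, a teneurin, had 68 members of 114 distal intervals, CNTNAP2, a neurexin family member, 53 of 89, GPC5, a glypican, 57 of 94, and LRRC4C, a netrin-G ligand, 52 of 94. Median log2 ratios were -0.27, -0.16, -0.25 and -0.43. PTPRN2, a protein of secretory granules, had 58 of 127, the lowest share kept of these at 45.7%. EFNA5, an ephrin ligand, had 60 of 116, with 13 members at least 2-fold lower and 0 higher. Over all members, 16.3% were at least 2-fold lower and 3.07% higher.

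TBL1XR1, a subunit of the NCoR corepressor complex, had 64 members of 103, with 15 at least 2-fold lower and 4 higher. The shares over all members were 16.3% lower and 3.07% higher. PDE4D, a cyclic AMP phosphodiesterase, had 62 of 114, AUTS2 52 of 84 and CAMTA1, a transcription activator, 52 of 85. MYC, the proto-oncogene whose surroundings on chromosome 8 are rich in enhancers, had 50 of 96, with a median log2 ratio of -0.74, and 18 of the 50 were at least 2-fold lower against 2 higher. The median of the 10-Mb block that holds MYC was -0.36.

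The remaining 7 genes with the most members were SPIDR (50 of 79), GSE1 (47 of 64), TAFA5 (47 of 87), DEFB115 (46 of 64), NAALADL2 (46 of 74), USP25 (45 of 100) and CELF4 (43 of 76). The share kept was 73.4% for GSE1 and 45.0% for USP25, the highest and lowest of the 20 genes. DEFB115, a defensin gene beside the centromere of chromosome 20, and TPTE were the ones of the 20 with a median log2 ratio above 0. Both lie near a centromere, with members a median of 1427 kb (DEFB115) and 1440 kb (TPTE) away. The placement of reads in these stretches was not checked. With TSSs of every gene type in place of protein-coding ones, only 3 of these 20 genes stayed among the 20 with the most members, and 14 to 20 did under the other alternatives.

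Among the 940 genes with 15 or more members, gene medians of the log2 ratio ran from -1.21 to 0.50, with a median of -0.33. ABCC4, a transporter of drugs and cyclic nucleotides expressed in the prostate, had the lowest. Its 18 kept sites of 35 had a median of -1.21 and a range of -2.15 to -0.16. Of these, 11 were at least 2-fold lower, beside 16.3% of all members. PRUNE2 had 18 of 36 kept sites with a median of -1.11 and 10 at least 2-fold lower, and FLT1, the vascular endothelial growth factor receptor VEGFR1, 16 of 35 with -1.06 and 8.

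The rest of the 8 lowest were RND3, MTHFD1L, PTGER4, NEDD4L and NUFIP1. NEDD4L, a ubiquitin ligase, had the most sites, with 42 of 71 kept, a median of -0.97, 20 at least 2-fold lower and 0 higher. Among all members 16.3% were at least 2-fold lower and 3.07% higher. RND3, a small GTPase, had a median of -1.06 over 21 sites and a median rank change of -25.2 points. MTHFD1L, an enzyme of mitochondrial folate metabolism, kept 16 of 17 sites, of which 8 were at least 2-fold lower. PTGER4, a prostaglandin E2 receptor, had 17 sites with a median of -0.98, and NUFIP1 15 with -0.96.

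All 8 medians lay below those of the 10-Mb blocks around them, which ran from -0.50 to -0.27. The 8 genes were chosen for their low medians, and the lowest median of any of the 299 blocks was -0.52. This order was therefore set by the choice and says nothing of a local effect. ABCC4, FLT1 and NUFIP1 are all on chromosome 13, whose members had a median of -0.33.

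At the other end, PAX2, a developmental paired-box factor of kidney and nervous system, had 15 of 19 sites kept and the highest median, 0.50, with quartiles of 0.11 and 0.73. TRIM27 kept 28 of 35 with 0.29, SPRY2, an inhibitor of receptor tyrosine kinase signalling, 28 of 42 with 0.28, and NCAM1, the neural cell adhesion molecule CD56, 19 of 27 with a range of -1.02 to 2.29. HGF, NBPF1, NCAM1, OR4E1 and PDE4B shared a median of 0.26, the value of a site with equal reads in the lists before scaling. Few sites of these 8 genes were past 2-fold, and they lay in both directions. Of all members, 3.07% were at least 2-fold higher and 16.3% lower. At least 2-fold higher and lower were 2 and 1 for PAX2, 1 and 0 for TRIM27, 4 and 1 for SPRY2, 0 and 2 for HGF, 1 and 0 for NBPF1, 2 and 1 for NCAM1, 0 and 1 for OR4E1 and 2 and 4 for PDE4B.

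**Figure D5:**
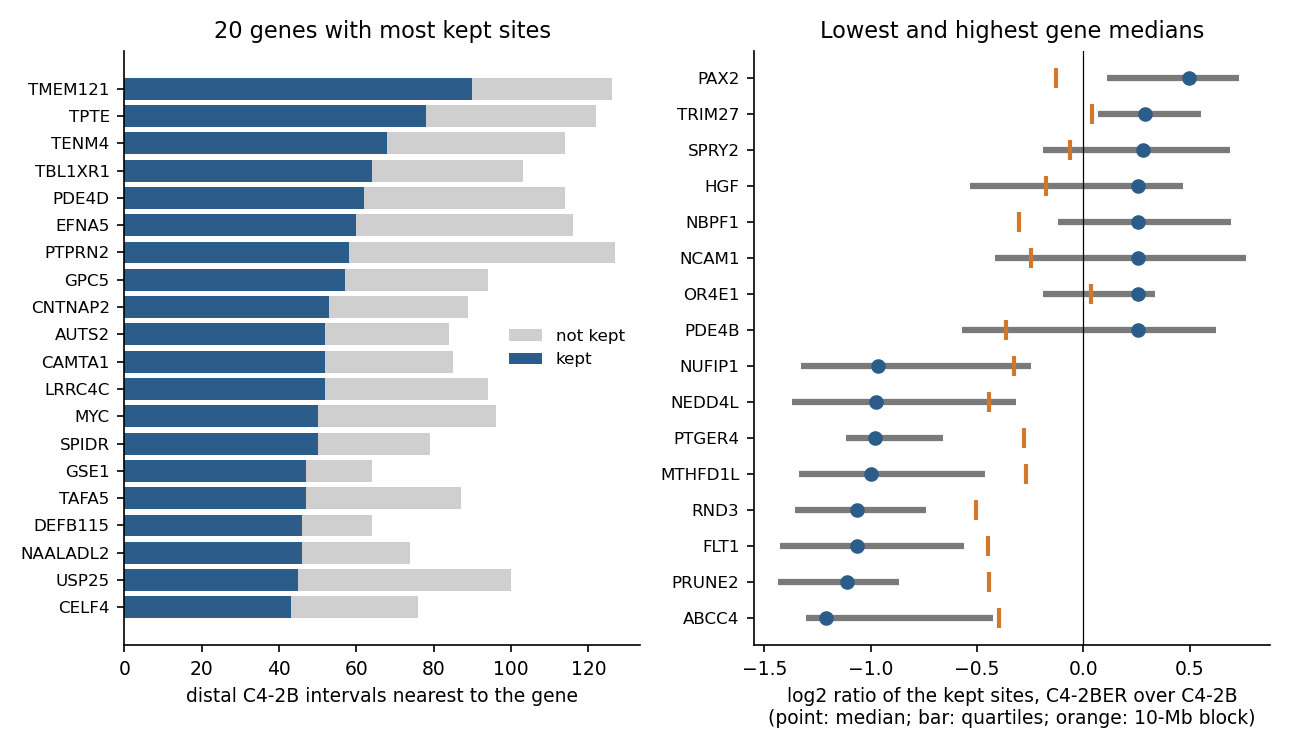
Left, the number of distal C4-2B intervals nearest to each of the 20 genes with the most kept sites, kept (blue) and not kept (grey); right, the median (point) and quartiles (bar) of the log2 ratio of summit reads, C4-2BER over C4-2B, for the 8 genes with the lowest and the 8 with the highest medians, with the median of the surrounding 10-Mb block (orange). TMEM121 leads with 90 kept of 126, and gene medians run from -1.21 at ABCC4 to 0.50 at PAX2.

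Genes of 5 lists were then described by the sites nearest to them. Of all distal intervals 58.1% were kept, and the median log2 ratio of all members was -0.26. Of all members, 16.3% were at least 2-fold lower in C4-2BER and 3.07% at least 2-fold higher. The list of androgen-regulated and luminal prostate genes had 171 kept sites of 292 (58.6%), with a median of -0.55 (-0.68 to -0.45), and 45 (26.3%) were at least 2-fold lower against 5 higher. All 20 of its genes had a member.

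Within it, GRHL2, an epithelial transcription factor, had 24 of 34 sites kept with a median of -0.63, and ELL2, an androgen-regulated elongation factor, 21 of 31 with -0.59. TMPRSS2, the androgen-induced protease, kept 14 of 17 with -0.74 and 5 at least 2-fold lower. FOLH1, which encodes prostate-specific membrane antigen, kept 14 of 21 with a median of -0.03, with 1 lower and 2 higher. The share kept of the whole list was near that of all distal intervals, and FOLH1 had the highest median of these 4 genes.

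The epithelial junction and keratin list had 114 kept sites of 190 (60.0%), with a median of -0.38 (-0.53 to -0.23). At least 2-fold lower were 24 (21.1%) and higher 4 (3.51%), beside 16.3% and 3.07% of all members. CTNNB1, which encodes β-catenin, had 19 of 39 with a median of -0.78, TJP1, a tight junction scaffold, 18 of 36 with -0.69, and EHF, an epithelial ETS factor, 14 of 20 with -0.71. These genes had the most members of the list, and their medians lay below that of the list. Medians of its other genes ran from -1.26 at ESRP2 (2 members) to 1.14 at RAB25 (1 member). The housekeeping list had 53 of 91 (58.2%), a median of -0.00 (-0.48 to 0.17) and 5 lower. YWHAZ had 16 of 26 with -0.04 and TFRC, the transferrin receptor, 10 of 13 with -0.74.

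The neuroendocrine list had 130 kept sites of 231 (56.3%), with a median of -0.23 (-0.41 to -0.10), 19 (14.6%) at least 2-fold lower and 6 (4.62%) higher. Over all members these shares were 16.3% and 3.07%. SOX2, a stem cell factor, kept 20 of 41 with -0.55, and FOXA2, a forkhead factor of neuroendocrine tissue, 14 of 29 with -0.25. PAX5, the B cell and neural factor for which the study is named, kept 14 of 23 with -0.11 and 1 site past 2-fold in each direction. These levels lie near the median of all members, apart from that of SOX2, which was lower.

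The neuronal adhesion and guidance list had the most sites, 338 kept of 646 (52.3%, 48.5 to 56.1). Their median was -0.16 (-0.26 to -0.06), with 47 (13.9%) at least 2-fold lower and 19 (5.62%) higher. The same shares over all members were 16.3% and 3.07%. NRXN3, a neurexin, kept 34 of 70 with -0.47, ROBO1, a guidance receptor, 31 of 62 with -0.42, and NCAM2 25 of 65 with 0.04 and the lowest share kept of these at 38.5%. The list also holds CD40, a receptor of immune cells, with 3 members. The lists were compared by these counts and medians only, with no test.

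Single sites showed the largest ratios. Among 36616 members that were paired 1 to 1 and had −log10 q of at least 10 in both lists, the highest ratio was in an intron 12130 bp downstream of the TSS of RAP1GAP, a GTPase activator of Rap proteins, at chr1:21607647-21608174. It had 20 reads in C4-2B against 149 in C4-2BER, a log2 ratio of 3.16 (2.48 to 3.91), and went from rank 38.3 to 98.9 and from 528 to 910 bp in width. Its printed sequence held none of the 21 motifs.

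The next 4 were nearest to ZFAND5 (23 and 127 reads), CKM (22 and 116), ARF1 (37 and 188) and VAV1 (31 and 152), with log2 ratios from 2.55 to 2.72. Each was wider in C4-2BER, for example from 577 to 1336 bp at the site in an intron nearest to VAV1, an exchange factor of blood cells. The ZFAND5 site held an AP-1 motif, and none of the 5 held a CTCF, androgen response element or forkhead motif.

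The lowest ratio was at chr8:123405220-123405958, in an intron 9142 bp from the TSS of ATAD2, a bromodomain protein. The site held a forkhead motif and had 172 reads in C4-2B against 18 in C4-2BER, a log2 ratio of -3.00 (-3.79 to -2.29), and the interval went from 739 to 347 bp. The site nearest to ESRRG, an orphan nuclear receptor related to the oestrogen receptor, had 150 and 18 reads (-2.80), and its printed sequence holds a RUNX motif. The other 3 were nearest to LSM3 (165 and 20 reads), RPS20 (167 and 21) and WWC3 (149 and 19), and the WWC3 site held a forkhead motif.

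The 5 lowest sites were at ranks from 99.1 to 99.8 in C4-2B and between ranks 46.4 and 56.6 in C4-2BER. They were among the strongest intervals of the parental line and of middling strength in the derived line. Both members of a pair had to pass the same −log10 q limit, so a very low ratio needed many C4-2B reads. These ranks are therefore largely part of the choice and not a separate result.

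The sites that ranked highest by the lower of their 2 ranks were chosen to be strong in both lists, so their high levels in each are part of the choice. The leading one lay in a long noncoding RNA gene 362331 bp from IRS2, at chr13:109424040-109424464, with 253 reads in C4-2B against 255 in C4-2BER. The next were nearest to EPHA6 (313 and 325 reads), ZNF14 (240 and 219), PROS1 (189 and 195) and ZNF124 (180 and 173). Their log2 ratios ran from 0.13 to 0.31, and of the 21 motifs only an ETS motif at the ZNF124 site was found. The PROS1 site, on chromosome 3, had a GC content of 21.4%, the lowest among the members. The study's text names a filter for blacklisted regions, which gather artefact reads, for its ChIP-seq but none for its ATAC-seq. Whether such regions are among these strongest sites was not tested.

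Members were also joined into clusters when at most 12.5 kb lay between them. This gave 46754 clusters, 42.1% of the members were alone in theirs, and 42 clusters of 10 or more held 491 members (0.670%), with a median log2 ratio of -0.14 (-0.21 to -0.07). The cluster with the most members, 25 of 32 distal intervals in 138 kb at chr6:27495239-27633491, was nearest to the zinc finger gene ZNF184 and had a median of 0.17. A further cluster of the same chromosome, 15 of 17 distal intervals at chr6:28789624-28864798 near TRIM27, had 0.16. Both lie in a 10-Mb block with a median of 0.04.

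The keratin cluster on chromosome 12, chr12:52278505-52396249, held 16 kept sites of 21, nearest to KRT81 to KRT86, hair keratin genes, with a median of -0.03. The cluster at ABHD2, an androgen-regulated hydrolase, chr15:89090671-89151307, also held 16, of 22 distal intervals. Its median was -0.95, 8 of its sites were at least 2-fold lower and 0 higher, against a block median of -0.38. Over all members the shares were 16.3% lower and 3.07% higher. The cluster at PPARA and WNT7B on chromosome 22 kept 14 of 16, with a median of -0.12 and none past 2-fold.

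By chromosome, the share kept ran from 53.1% on X to 67.3% (65.5 to 69.0) on chromosome 19, and the median log2 ratio from -0.37 on chromosome 15 to 0.05 (0.01 to 0.08) on chromosome 19, the only one above 0. Chromosome 19 is dense in genes and in zinc finger clusters. Of 299 blocks of 10 Mb with at least 50 members, the lowest median was -0.52 (-0.76 to -0.25), in the last block of chromosome 15, and the highest 0.26, on chromosome 19. Copy number in the lines was not measured here, and its part in these regional levels was not tested.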

How the data were processed

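The authors trimmed and aligned the ATAC-seq reads to hg38 with Bowtie2, removed duplicates with Picard, merged the 2 replicates of each line and called peaks with MACS2 without a model and with 200 bp extension; its version is not given in the sources used here, and the study's text prints the shift without a minus sign. A positive shift would move the summits, on which the printed sequences and motif windows rest, and this was not tested. Before duplicates were removed, the reads had been filtered by mapping quality. The labels also name FastQC and bedtools 2.17. In the files deposited by the authors, a row gives a summit and the interval around it. The deposited ratio is the caller's fold enrichment of pileup plus 1 over local background plus 1. The deposited −log10 values are the summit's p and q, and the other deposited column used is the summit offset in bp.

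Intervals were counted once, with their strongest summit. Whole reads and background were solved from fold and Poisson −log10 p for 100% of summits (largest error 0.000259), and the step was tested on simulated data. The lowest background, 2.24 and 1.87 reads per 200 bp, gave the depth ratio. The lowest summits held 8 (C4-2B) and 7 (C4-2BER) reads, which bounds the lists from below. GENCODE release 44 supplied TSSs of 19689 protein-coding genes. Motifs were matched as consensus letters in hg38. The letters of 1 of the 21 motifs and some named genes and sites are not reported here. Python 3.11.15, NumPy 2.4.6, SciPy 1.17.1 and pandas 2.3.3 were used.

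With 1 list per line there was no test, SD or p-value. Shares carry Wilson 95% intervals, medians binomial ones and site ratios exact ones, which cover counting error only. Members, gene lists and motifs were chosen with earlier results of these data known. Named are the 20 genes with most members, the 8 highest and lowest gene medians among genes with at least 15, the 5 highest, lowest and strongest 1 to 1 sites with −log10 q of at least 10, the 5 largest clusters and the leading genes of 5 lists; any other name is given as picked once its values were known. Alternatives were stricter lists, other rules for overlap, distance, TSSs and partner, centred ratios, a wider motif window and close summits.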

Additional observations from a re-analysis of the deposited data

How the results depend on the processing

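No paired analysis was possible because peaks were called after both libraries of a line had been merged, which also means that no replicate could be left out. Counts, distance, width, level, rank change and the CTCF and androgen response element shares were recomputed under the alternatives that bear on them; motif medians, gene lists, gene medians, chromosomes and clusters were not. Where computed, the median rank change stayed below 0 and more members were at least 2-fold lower than higher. With −log10 q of at least 5 in both lists, 55.3% of distal intervals were kept, the median distance was 35430 bp, the width ratio 0.931, the rank change -6.76, 13.8% were at least 2-fold lower and 2.36% higher, and 6.53% of the higher had a CTCF motif. With at least 10, 38819 members remained (50.6%), and these values were 32321 bp, 0.949, -9.87, 10.3%, 1.41% and 7.88%. A reciprocal overlap of 50% gave 50.0% kept, 0.935, -3.60, 13.2% and 1.87%. A distance over 5000 bp gave a median of 41303.5 bp and 16.7% lower. TSSs of every gene type gave 57.1% kept, 13173 bp, 0.915, -4.81, 16.8% and 2.81%. Ratios centred on all kept intervals gave 12.8% lower and 4.24% higher, of which 6.86% had a CTCF motif. Pairs 1 to 1 with summits within 50 bp, chosen after seeing the data, gave 0.928, -3.72, 14.4% and 2.15%. No member at least 2-fold higher held an androgen response element under any of these, but within 250 bp of the summit 0.0445% did. Stricter lists drop weak sites by construction; other causes were not tested. Depth limits what can be said of sites near 7 or 8 reads, whose absence from a list is not absence of accessibility.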

Other observations

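Some motifs were found less often in the kept sites than in the distal C4-2BER intervals that had no C4-2B partner. The HNF1 motif was found at 6 members (0.00819%), at 0.00379% of the distal C4-2B intervals not kept and at 0.487% of the C4-2BER intervals without a partner. The HNF4 motif was found at 0.329%, 0.301% and 0.775% of these sets, and the PBX-HOX motif at 1.76%, 1.85% and 2.70%. In windows 1000 bp from the members' summits the shares were 0.0273% for HNF1, 0.291% for HNF4 and 2.69% for PBX-HOX, so the last was at the level of the flanks in the C4-2BER intervals without a partner. The kept HNF4 sites were at least 2-fold higher in C4-2BER in 6.22% of cases, and the kept POU octamer sites in 6.70%, beside 3.07% of all members. More of them were at least 2-fold lower, 14.9% (HNF4) and 14.4% (POU octamer), beside 16.3% of all members. Their median log2 ratios were -0.23 and -0.19.

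Members without any of the 21 motifs numbered 27398 (37.4%). Their median log2 ratio was -0.23, with 14.5% at least 2-fold lower and 3.64% at least 2-fold higher.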
